A study of Mus musculus with 22 samples.

Results

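The genes described here are 8 transcripts whose proteins build the coat and the surface of the mouse egg and start its response to sperm: Zp1, Zp2, Zp3, Astl, Izumo1r, Cd9, Cd81 and Itpr1. They were taken by gene symbol from the 52636 genes of the count table. No measured value entered that rule, but the genes were chosen with earlier results of these data known. RNA was sequenced from pooled fully-grown oocytes still holding their germinal vesicle (GV oocytes) of C57BL/6 mice, in 22 samples. The samples came from females lacking oocyte RNA interference (RNAi), the piRNA pathway, or both, and the question was what each loss does to the oocyte transcriptome.

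The single-end run held wild type (Dicer-WT/WT, n = 3), Dicer ΔMT/WT (n = 1), Dicer ΔMT/ΔMT (n = 4) and Dicer SOM/SOM (n = 3), with no age in the labels. The ΔMT allele lacks the retrotransposon-derived promoter of the short, oocyte-specific Dicer. The SOM allele encodes an HA-tagged full-length Dicer, lacks the introns in which truncated Dicer can start, and goes back to 1 line of targeted stem cells. In the paired-end run every animal carried at least 1 SOM and 1 DAH allele, DAH being a mutation in the catalytic site of the piRNA-pathway protein MILI. Controls were Mili DAH/WT, Dicer SOM/WT (n = 4, at 36, 38, 10 and 17 weeks) and RNAi mutants were Mili DAH/WT, Dicer SOM/SOM (n = 2, at 17 and 13 weeks). The piRNA mutant was Mili DAH/DAH, Dicer SOM/WT (n = 1, at 16 weeks) and double mutants were Mili DAH/DAH, Dicer SOM/SOM (n = 4, at 40, 35, 11 and 11 weeks). Both runs used sequencing of amplified cDNA without regard to strand, and the labels of the single-end run do not name the animals, so p-values there cover the spread between these samples, which the study calls biological replicates.

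Paired-end libraries held 22928936 to 43540806 counts. Single-end libraries held 6468380 to 90713013, the fewest in Dicer SOM/SOM replicate 3. Dicer1 itself was at 1020 CPM (counts scaled to library size after TMM normalization) ± 31.6 (SD, n = 3) in wild type and at 49.9 ± 6.96 (n = 3) in Dicer SOM/SOM. The oocyte genes Gdf9, Bmp15 and Nlrp5 were at 1277 CPM or more in every library, while Amh, Fshr and Foxl2, which define granulosa cells, stayed at or below 2.61 CPM. The whole list of 13 granulosa and cumulus genes summed to 372 to 487 CPM in the single-end and 426 to 651 CPM in the paired-end run, mostly Bmpr1b (249 to 531 CPM), then Nr5a2 (38.5 to 92.6), Inhba (6.17 to 45.1) and Cyp19a1 (up to 25.2), and the part of such cells in the results was not tested. The level of Gm42418, a gene laid over a copy of ribosomal RNA (rRNA), parted the paired-end libraries into 6 with 4086 to 5503 CPM and 5 with 294 to 557 CPM. The 5 were controls 2o and 2, double mutants 2o and 2 and the piRNA mutant, so both groups of 4 held 2 libraries of each kind and both RNAi mutants were of the first kind. In Dicer SOM/SOM this rRNA level was 12876, 4798 and 17432 CPM in replicates 1 to 3, against 5236 to 5825 in wild type.

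The zona pellucida is the glycoprotein coat that the growing oocyte secretes around itself. In the mouse it is made of ZP1, ZP2 and ZP3, and sperm bind to it through ZP2. After fertilization, the protease ovastacin, encoded by Astl and stored in cortical granules under the membrane, cleaves ZP2 and so ends sperm binding. On the membrane, JUNO (Izumo1r) is the receptor for the sperm protein IZUMO1, and the tetraspanins CD9 and CD81 act in the fusion of the gametes. The IP3 receptor of the endoplasmic reticulum, encoded by Itpr1, releases the calcium waves that activate the egg. All of these proteins or their mRNAs are in place in the GV oocyte, before ovulation.

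In the GRCm38 coordinates of the count table, Zp1 lies at chr19:10914289-10920632 (minus strand), Zp2 at chr7:120126772-120145290 (minus) and Zp3 at chr5:135980099-135988624 (plus). Astl lies at chr2:127338639-127357651 (plus), Izumo1r at chr9:14885814-14903949 (minus), Cd9 at chr6:125460266-125494791 (minus), Cd81 at chr7:143052739-143067934 (plus) and Itpr1 at chr6:108213096-108551109 (plus). Counts were summed over the exons of a gene, whose merged length runs from 1228 bases in Cd9 to 9870 in Itpr1, over 62 exon blocks. Cd9 and Cd81 each share 30 exonic bases with a gene of the opposite strand (Gm26728 and R74862), and Itpr1 shares 181 with Gm44101 and 108 with Gm44040. Reads in these stretches cannot be assigned to a strand. For Zp1, Zp2, Zp3, Astl and Izumo1r, no other gene had a transcript at least 95% identical over 50 bases or more, while Cd9 had such matches to 20 genes. The longest of these were 218 bases to Gm26728, 172 to Topbp1 and 154 to Dnajc14, against 74 to R74862 for Cd81 and 184 to Gm44101 for Itpr1. Reads from such stretches were divided among their places, so the Cd9 values are uncertain to that extent.

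Zp1, Zp2 and Zp3 are known to be switched on together by the factor FIGLA, which binds the sequence CANNTG (an E-box). RefSeq promoters of build GRCm38.p6 were at hand for 5 of the 8 genes, Zp3, Astl (2 starts), Izumo1r, Cd9 and Cd81. The bases just before the start are printed 5′ to 3′, up to the first exon base of the count table, with each CANNTG in capitals, to show what the oocyte-restricted and the broadly used promoters look like:
Zp3, chr5:135980005-135980098, plus: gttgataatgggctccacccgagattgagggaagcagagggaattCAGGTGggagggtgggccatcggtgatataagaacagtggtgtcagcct
Astl, first start, chr2:127338539-127338638, plus: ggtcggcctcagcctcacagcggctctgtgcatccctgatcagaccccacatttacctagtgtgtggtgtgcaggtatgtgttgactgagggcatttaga
Astl, second start, chr2:127341536-127341629, plus: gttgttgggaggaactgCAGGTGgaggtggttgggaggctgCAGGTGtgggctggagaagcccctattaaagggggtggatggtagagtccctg
Cd9, chr6:125494792-125494860, minus: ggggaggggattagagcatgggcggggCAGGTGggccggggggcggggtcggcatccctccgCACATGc
Cd81, chr7:143052650-143052738, plus: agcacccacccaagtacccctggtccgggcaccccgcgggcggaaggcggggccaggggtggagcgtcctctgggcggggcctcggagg

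Within 100 bases before the start, Zp3 held CAGGTG at 55 bases, the second start of Astl at 59 and 83 bases, Cd9 at 73 bases and Izumo1r its reverse complement CACCTG at 57 bases. The first base of the Izumo1r window already lies in an exon of the count table, so no base of it is printed. On either strand, this form of the E-box was present in 7.03% of 32851 promoters over the same length, and any CANNTG in 34.4%. Neither the first start of Astl, 2997 bases upstream of the second, nor Cd81 held one in this window. The Cd9 and Cd81 windows were 72% and 77% G and C with 9 CG each, and those of Zp3 and of both Astl starts 53% to 57% with at most 2. The exact sequence TATAAA was in none of the 6 windows and in 5.56% of all. Near forms of it were not searched, and the printed Zp3 bases hold tataag, which differs from it in the last base. The gene counts do not say which Astl start was used. Bases further upstream were not searched for E-boxes, and whether FIGLA acts through the boxes named here was not tested.

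The 8 transcripts ran from among the most abundant in the oocyte to near the middle of the genes tested. As CPM per kb of exon, which allows genes to be compared, Zp3 was at 1137 ± 99.6 (SD, n = 3) in wild type and took rank 21 of the 23151 genes tested. Zp2 followed at 472 ± 72 and Zp1 at 411 ± 30.4, ranks 60 and 73, and their ranges of 391 to 530 and 376 to 429 overlapped. The zona genes made up 0.291% to 0.374% of all counts in the wild-type libraries. Astl at 73.3 ± 10.2 and Izumo1r at 66.4 ± 3.15 also overlapped, as did Itpr1 at 23.9 ± 0.526 and Cd9 at 23.5 ± 5.37. Cd81 stood far below at 1.40 ± 0.228, rank 13018 with 43.8% of the genes below it, and its mRNA was seen with only 11 to 235 counts per single-end library. Of the tetraspanin pair, the GV oocyte thus held mostly Cd9 mRNA. In the paired-end controls Zp3 was at 787 ± 35.6 (n = 4) per kb, Zp2 at 572 ± 115 and Zp1 at 336 ± 73.5, with no overlap between Zp2 and Zp1. There, Izumo1r at 33.3 ± 5.24 overlapped with Itpr1 at 26.7 ± 5.02 and Cd9 at 18.8 ± 8.36. The runs differ in read type and were normalized apart, so levels were not tested between them.

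**Figure D1:**
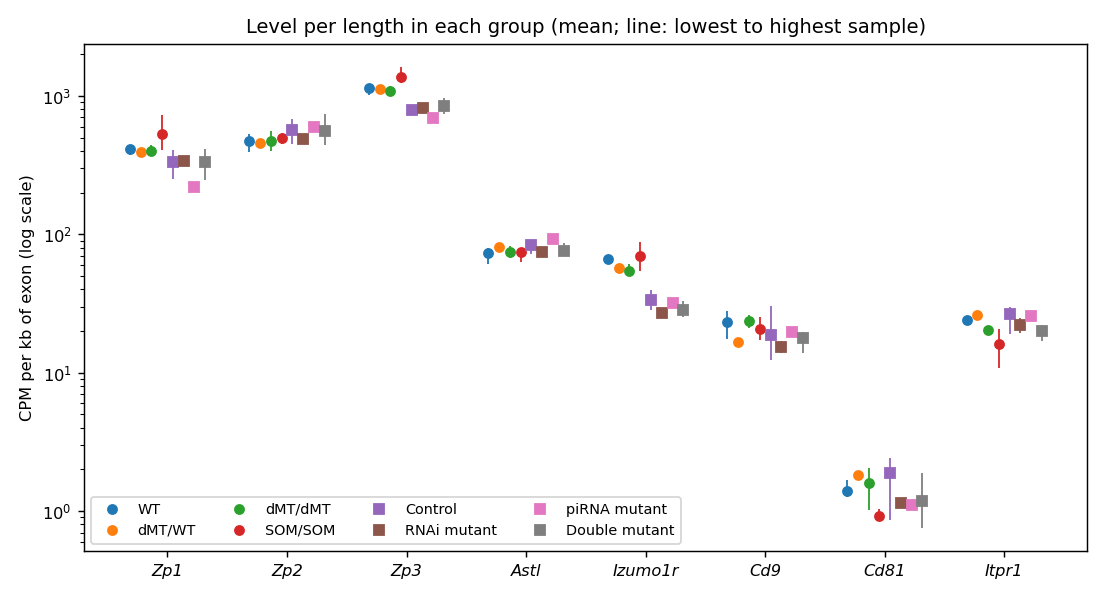
Mean level of each of the 8 genes in each group, as CPM per kb of exon on a log scale, with a line from the lowest to the highest sample (circles: single-end run, squares: paired-end run). Zp3 lies on top in every group, from 694 to 1366, and Cd81 at the bottom, from 0.924 to 1.89.

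Of the 48 tests of these genes over 6 comparisons, 1 was called at an adjusted p under 0.05 (edgeR's quasi-likelihood test, adjusted over all genes tested). It was the lower level of Itpr1 in Dicer SOM/SOM against wild type. In that comparison 14.5% of 23151 genes were called higher and 14.2% lower, so 1 of 8 is near the background. In 43 of the 48 tests the estimated difference was under 0.5 log2 units and in 43 the 95% interval lay within 1 log2 unit of 0.

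The zona genes gave no call in the Dicer mutants of the single-end run. Zp3 was at 1566, 1353 and 1594 CPM in wild type, at 1631, 1647 and 2145 in Dicer SOM/SOM and at 1466, 1318, 1403 and 1560.3 in Dicer ΔMT/ΔMT. All Dicer SOM/SOM samples lay above both other groups, which overlapped with each other. The log2 difference of Dicer SOM/SOM to wild type was 0.26 (95% interval 0.0082 to 0.52, adjusted p = 0.114) and that to Dicer ΔMT/ΔMT 0.33 (0.092 to 0.57, adjusted p = 0.0932). Each was called in 1 of 18 alternatives, when only genes of at least 5 CPM were tested. The adjusted p was then 0.0483 and 0.0470 and the differences 0.35 and 0.38. With the rRNA level as a covariate, the difference to wild type was 0.12. Without Dicer SOM/SOM replicate 3, that to Dicer ΔMT/ΔMT was 0.19. Zp3 in Dicer ΔMT/ΔMT differed from wild type by -0.07 (-0.31 to 0.17).

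Zp1 was at 843, 738 and 840.3 CPM in wild type, at 889, 795 and 1425 in Dicer SOM/SOM and at 800.3, 719, 739 and 873 in Dicer ΔMT/ΔMT. The value of 1425, from replicate 3, the library with the fewest counts and the most rRNA, was above all others, and the remaining samples overlapped. The difference of Dicer SOM/SOM to wild type was 0.36 (-0.042 to 0.76, adjusted p = 0.167), and 0.00038 with the rRNA level as a covariate. Zp2, the sperm-binding component, was at 1206, 954 and 1293 CPM in wild type, at 1107, 1314 and 1223 in Dicer SOM/SOM and at 1356, 1102, 975 and 1161 in Dicer ΔMT/ΔMT. The 3 ranges overlapped, with differences to wild type of 0.078 (-0.22 to 0.38) for Dicer SOM/SOM and -0.0032 (-0.28 to 0.28) for Dicer ΔMT/ΔMT. For Zp2 the data thus leave room for a fall to 82.1% or a rise to 121% of wild type in Dicer ΔMT/ΔMT.

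**Figure D2:**
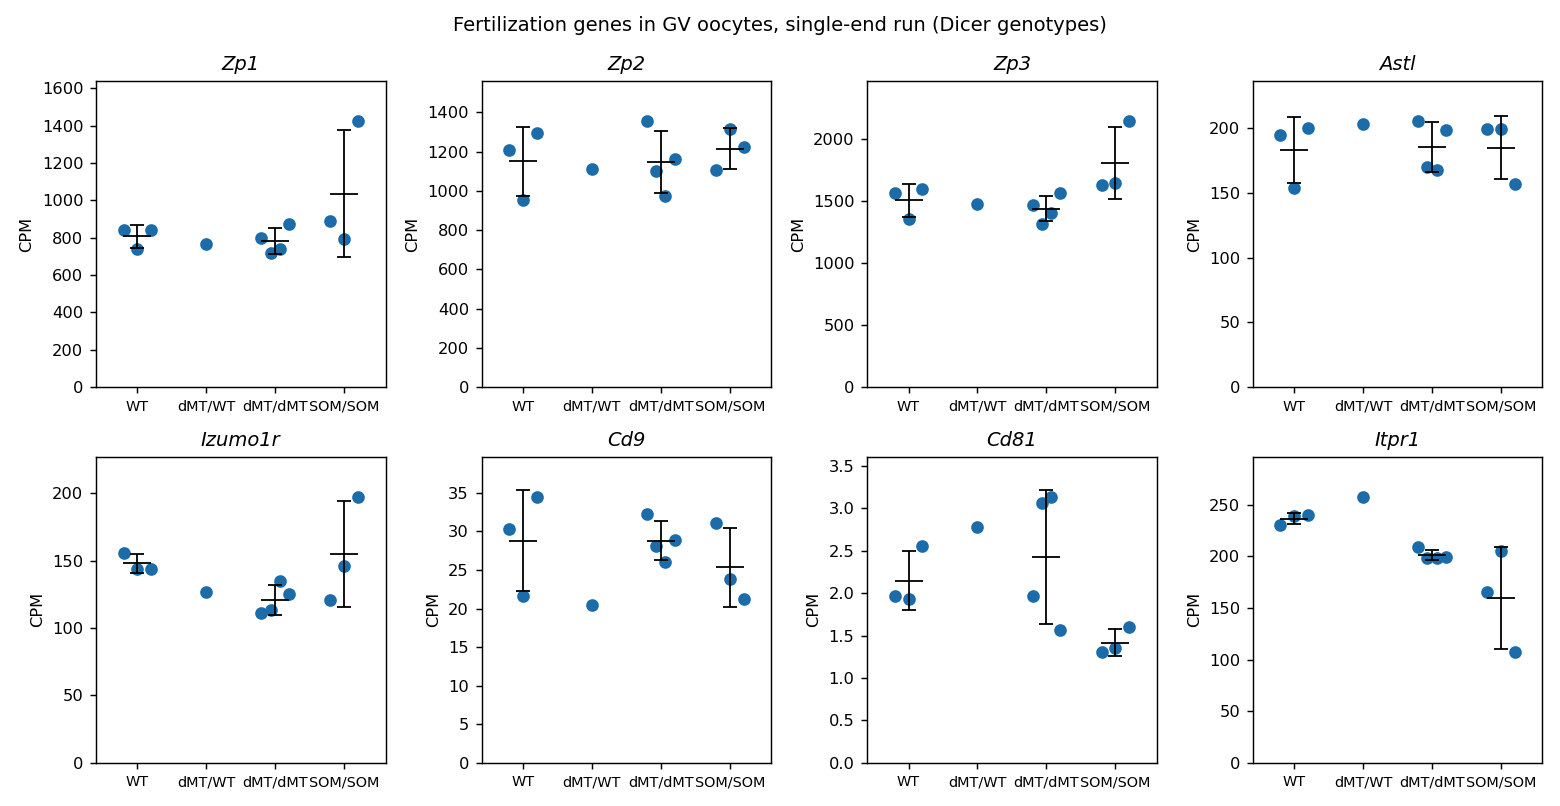
CPM of the 8 genes in each single-end sample (points), with the mean and SD of groups of 3 or 4 samples (bars), on axes that start at 0. The Dicer SOM/SOM points of Zp3 lie above and those of Itpr1 below every wild-type point, and 1 Dicer SOM/SOM library stands apart in Zp1, Zp3, Izumo1r and Itpr1.

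In the paired-end run, loss of RNAi, or of RNAi and MILI activity together, left the zona genes uncalled as well. Zp3 was at 1077, 996, 1007 and 1087 CPM in controls, 1113 and 1066 in RNAi mutants and 1281, 1196, 1055 and 982 in double mutants. The groups overlapped, and the double mutants differed from controls by 0.12 log2 units (-0.12 to 0.35, adjusted p = 0.506). Zp1 was at 754, 592, 489 and 801 CPM in controls, 640.0 and 701 in RNAi mutants and 816, 628, 692 and 487 in double mutants. Zp2 was at 1093, 1617, 1652 and 1219.8 CPM in controls, 1230.5 and 1159.8 in RNAi mutants and 1135, 1811, 1088 and 1429 in double mutants. In controls and in double mutants, the pair of libraries with the higher Zp1 values had the lower Zp2 values.

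This order went with the rRNA level of the libraries and not with the genotype. Zp1 was at 734 ± 68.3 CPM (SD, n = 6) in the libraries of high rRNA and at 525 ± 81.9 (n = 5) in those of low rRNA, 71.6% of the former. Zp2 was at 1154 ± 61.1 and 1594 ± 155, or 138% in the libraries of low rRNA. The lowest Zp1 value of the first set, 640.0, was above the highest of the second, 628, and the Zp2 ranges of 1088 to 1230.5 and 1429 to 1811 did not overlap either. Of the summed CPM per kb of the zona genes, Zp2 made up 25.1% to 30.2% in the first set and 37.1% to 40.1% in the second. Over all 20989 genes tested, 3.85% did not overlap between the sets, and the other 6 genes described here all did. The sets were drawn after the values were seen, and no test was made of them.

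**Figure D3:**
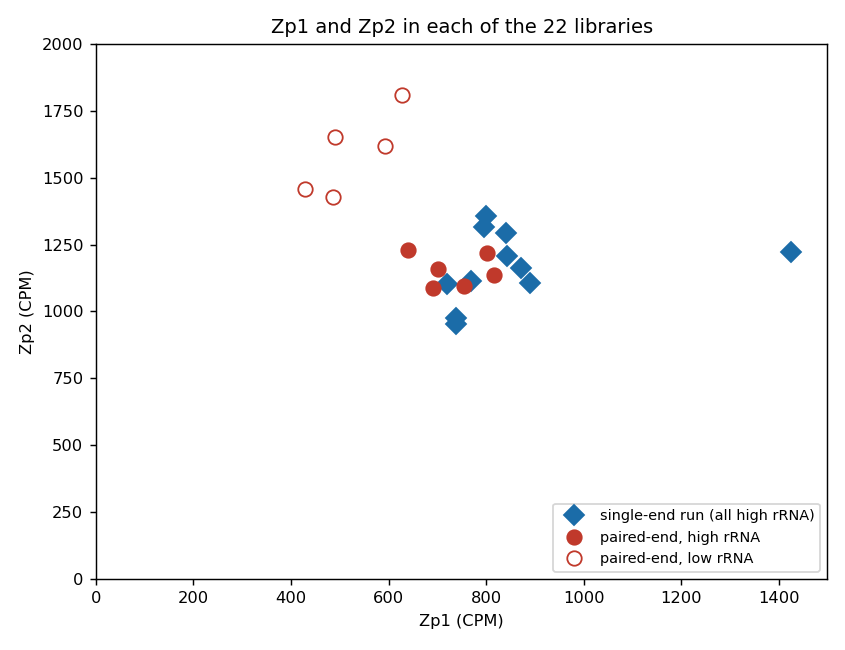
Zp1 against Zp2 in CPM in each of the 22 libraries, on linear axes from 0, marked by run and, in the paired-end run, by rRNA level. The 5 paired-end libraries of low rRNA (open circles) form a group with Zp2 at 1429 or more and Zp1 at 628 or less, and the single-end library at 1425 CPM of Zp1 is Dicer SOM/SOM replicate 3.

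Within these sets, double mutants were close to controls. Among libraries of high rRNA, the mean of Zp1 in double mutants was 96.9% of that in controls and that of Zp2 96.1%, and among those of low rRNA 103% and 99.1% (n = 2 on each side). RNAi mutants, all of high rRNA, had Zp1 at 86.2% of the controls of that set (640.0 and 701 against 754 and 801 CPM). Their Zp2 was at 103%, again with n = 2 on each side. Zp1 in the double mutants of that set was at 112% of the RNAi mutants. The difference of Zp2 between RNAi mutants and controls, -0.22 log2 units (-0.69 to 0.24), became 0.070 with the rRNA level as a covariate and 0.052 with the high-rRNA libraries alone, and that of Zp1 went from 0.024 to -0.21 in both. None of these values was called.

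Astl, whose protease ends sperm binding, varied little. It was at 195, 154 and 200.5 CPM in wild type, 199, 199 and 157 in Dicer SOM/SOM and 206, 170.3, 167 and 199 in Dicer ΔMT/ΔMT. In the paired-end run it was at 179.7, 220.0, 218 and 215 CPM in controls, 191 and 181 in RNAi mutants and 174, 217, 186 and 185 in double mutants. The groups overlapped in all comparisons, and the differences to wild type were 0.018 (-0.28 to 0.31) for Dicer SOM/SOM and 0.019 (-0.26 to 0.29) for Dicer ΔMT/ΔMT. RNAi and double mutants differed from controls by -0.16 (-0.46 to 0.13) and -0.13 (-0.37 to 0.11).

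Izumo1r, the egg receptor for IZUMO1, was at 156, 144 and 144 CPM in wild type and at 111, 113, 135 and 125 in Dicer ΔMT/ΔMT. The ranges did not overlap, but the difference of -0.29 (-0.60 to 0.024) had an adjusted p of 0.203, and it was called only when these groups were fitted alone (adjusted p = 0.0313). Dicer SOM/SOM, at 121, 146 and 198 CPM, spread over both ranges and beyond. In the paired-end run Izumo1r was at 88.3, 65.7, 79.4 and 63.7 CPM in controls, 63.5 and 56.9 in RNAi mutants and 73.0, 58.7, 64.0 and 56.6 in double mutants. The higher RNAi mutant, at 63.5, was just below the lowest control, at 63.7, and the difference was -0.30 (-0.68 to 0.067, adjusted p = 0.321).

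Cd9, the tetraspanin needed for efficient fusion, was at 30.3, 21.6 and 34.5 CPM in wild type, 31.0, 23.8 and 21.2 in Dicer SOM/SOM and 32.2, 28.1, 26.1 and 28.9 in Dicer ΔMT/ΔMT. The groups overlapped, with differences to wild type of -0.17 (-0.57 to 0.23) and -0.00027 (-0.37 to 0.37). Controls of the paired-end run spread from 15.3 and 15.7 CPM at 36 and 38 weeks to 37.2 and 24.3 at 10 and 17 weeks. The RNAi mutants, at 20.8 and 17.1, and the double mutants, at 16.9, 24.4, 22.2 and 23.4, lay inside that spread. The older minus the younger controls gave -0.99 log2 units (SE 0.26), with an adjusted p of 0.685 over all genes.

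Cd81 was at 1.96, 1.93 and 2.55 CPM in wild type, 1.30, 1.35 and 1.60 in Dicer SOM/SOM and 1.96, 3.06, 3.14 and 1.56 in Dicer ΔMT/ΔMT. Dicer SOM/SOM lay below all wild-type samples, with a difference of -0.64 (-1.27 to -0.0080, adjusted p = 0.121). Controls were at 3.69, 3.67, 1.33 and 2.87 CPM, RNAi mutants at 1.82 and 1.68 and double mutants at 1.16, 2.89, 1.72 and 1.52. Control replicate 2 was below both RNAi mutants, so the ranges overlapped, and the differences to controls were -0.72 (-1.68 to 0.23) and -0.66 (-1.41 to 0.094). The Dicer SOM/SOM values rest on 63, 86 and 11 counts, and the intervals of Cd81 are the widest of the 8 genes.

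Itpr1, the IP3 receptor that carries the calcium signal of fertilization, had a lower mean in every group with both Dicer alleles mutant. It was at 230.4, 239 and 240.0 CPM in wild type, 166, 205 and 108 in Dicer SOM/SOM and 209, 199, 198 and 199 in Dicer ΔMT/ΔMT. No sample of either mutant reached the lowest wild-type value. The level in Dicer SOM/SOM was 67.9% of wild type (95% interval 52.2% to 88.4%), a log2 difference of -0.56 (SE 0.17, adjusted p = 0.0326). In Dicer ΔMT/ΔMT it was 85.1% (66.7% to 109%), a difference of -0.23 that was not called (adjusted p = 0.370). With these groups fitted alone it was as large, at -0.23, and called (adjusted p = 0.0113), as it was without Dicer SOM/SOM replicate 3 (adjusted p = 0.0491).

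The level in Dicer SOM/SOM moved with the rRNA level of its libraries: Itpr1 was at 205 CPM where Gm42418 was at 4798, at 166 where it was at 12876 and at 108 where it was at 17432. With the rRNA level as a covariate, the difference to wild type was -0.27 (adjusted p = 0.215). Without replicate 3, which has the most rRNA and the fewest counts, it was -0.35 and still called (adjusted p = 0.0155). The call was lost at a difference of -0.55 when the pair of groups was fitted alone (adjusted p = 0.0902), at -0.58 without Dicer SOM/SOM replicate 1 (0.0622) and at -0.58 to -0.55 without any 1 of the wild-type replicates (0.0658 to 0.0771). Replicate 2 had less rRNA than any wild-type library (4798 against 5236 to 5825 CPM), and its Itpr1 was still below the lowest wild-type value (205 against 230.4). In the paired-end run, mean Itpr1 was 239 CPM in the libraries of high rRNA and 219 in those of low rRNA, with overlapping ranges. How far the rRNA level shapes the fall was not tested.

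In the paired-end run Itpr1 was at 294, 291, 189.6 and 277 CPM in controls, 190.0 and 245 in RNAi mutants and 209.7, 192, 217 and 168 in double mutants. Control replicate 2, at 10 weeks, was within the range of the double mutants, and the other 3 controls were above every sample without oocyte RNAi. Double mutants were at 74.8% of controls (59.5% to 93.9%), a log2 difference of -0.42 (SE 0.15) with an adjusted p of 0.0683. This passed the threshold with the rRNA level as a covariate (-0.44, adjusted p = 0.0317), without control replicate 2 (-0.53, adjusted p = 0.00825) and by DESeq2 (adjusted p = 0.0487), but not under the other 18 of 21 alternatives. With younger animals alone the difference was -0.27 (adjusted p = 0.550). The mean in double mutants was 74.8% of the control mean among libraries of high rRNA and again 74.8% among those of low rRNA. RNAi mutants were at 82.8% of controls (62.4% to 110%, adjusted p = 0.433), or 76.2% within the libraries of high rRNA. Between double and RNAi mutants the difference was -0.15 (-0.55 to 0.25). In bulk RNA, fewer transcripts per oocyte and fewer oocytes holding them cannot be told apart.

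**Figure D4:**
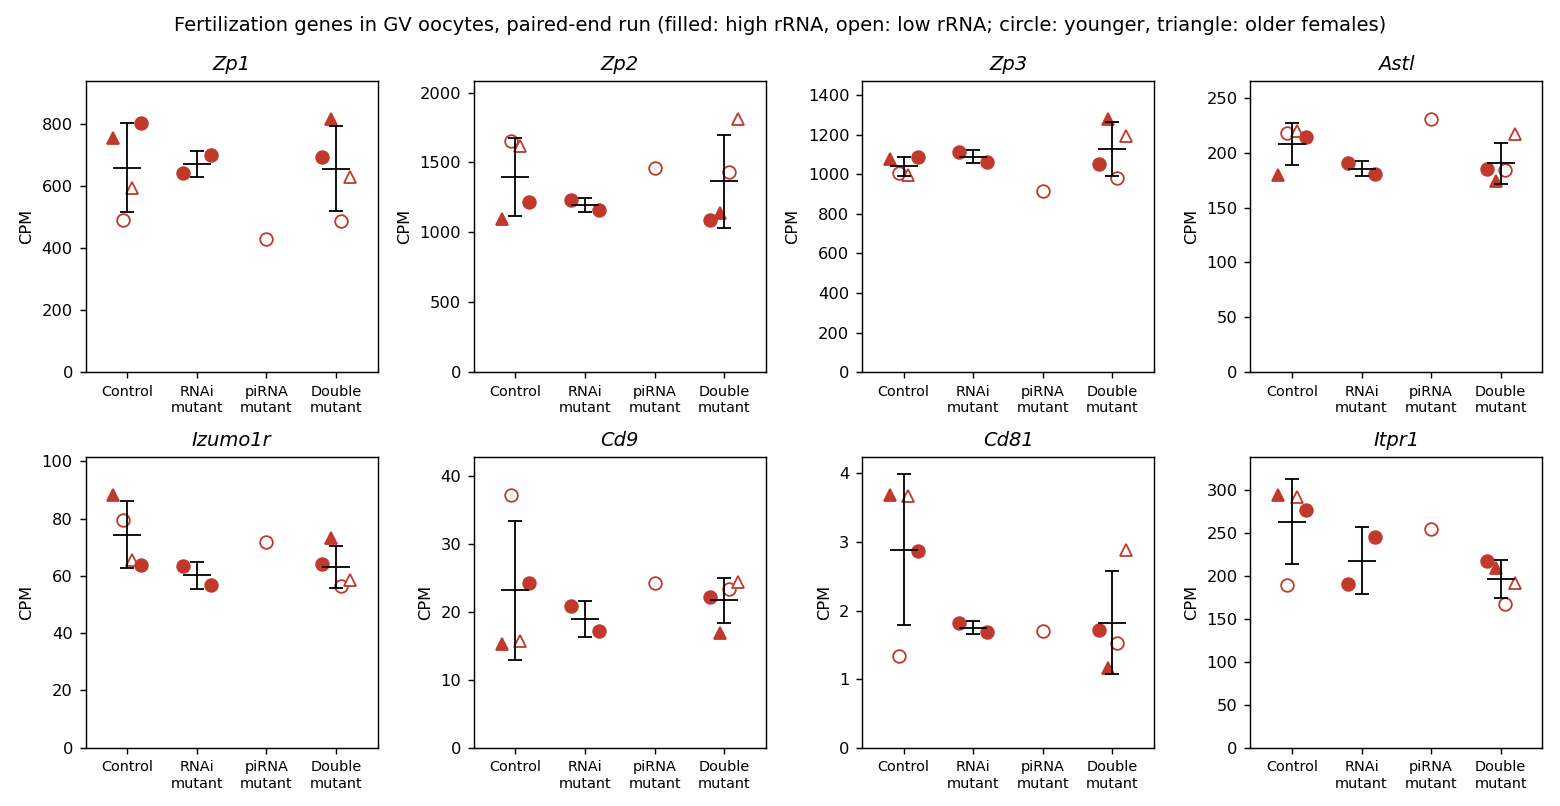
CPM of the 8 genes in each paired-end sample, with the mean and SD of each group of 2 or 4 samples (bars), on axes that start at 0, where filled symbols are libraries of high rRNA, open ones of low rRNA, circles females of up to 17 weeks and triangles those of 35 to 40 weeks. In Zp1 and Zp2 filled and open symbols part within controls and within double mutants, while in Itpr1 3 of the 4 controls lie above all double mutants.

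Comparison by comparison, the counts of called members stayed at or near 0. For Dicer ΔMT/ΔMT against wild type it was 0 of 8 (0 at an unadjusted p under 0.05 and 0 by DESeq2), where 8.06% of all genes were called higher and 7.3% lower, and 2 members, Izumo1r and Itpr1, did not overlap against 33.6% of all genes. For Dicer SOM/SOM against wild type, Itpr1 alone was called, 3 members passed an unadjusted 0.05, and Zp3, Cd81 and Itpr1 did not overlap against 41.4% of genes. Dicer SOM/SOM against Dicer ΔMT/ΔMT gave 0 of 8 (4 unadjusted, 0 by DESeq2), beside 4.03% and 3.32% of genes called higher and lower, and Zp3 did not overlap against 21.4% of genes. Each of these 3 comparisons shares a group with each of the others.

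For RNAi mutants against controls it was 0 of 8 (0 unadjusted, 0 by DESeq2), beside 7.07% of genes called higher and 3.64% lower, with Izumo1r not overlapping against 34.8% of genes. Double mutants against the same controls gave 0 of 8 (1 unadjusted, 1 by DESeq2, in both cases Itpr1), beside 12.3% higher and 8.84% lower, and no member was free of overlap against 23.3% of genes. Double against RNAi mutants gave 0 of 8 (0 unadjusted, 0 by DESeq2), where 0.31% of genes were called higher, 0.00476% lower and 14.4% did not overlap. The median difference over the 8 genes lay between -0.25 in RNAi mutants and 0.060 in double against RNAi mutants, beside -0.023 and 0.011 over all genes tested.

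**Figure D5:**
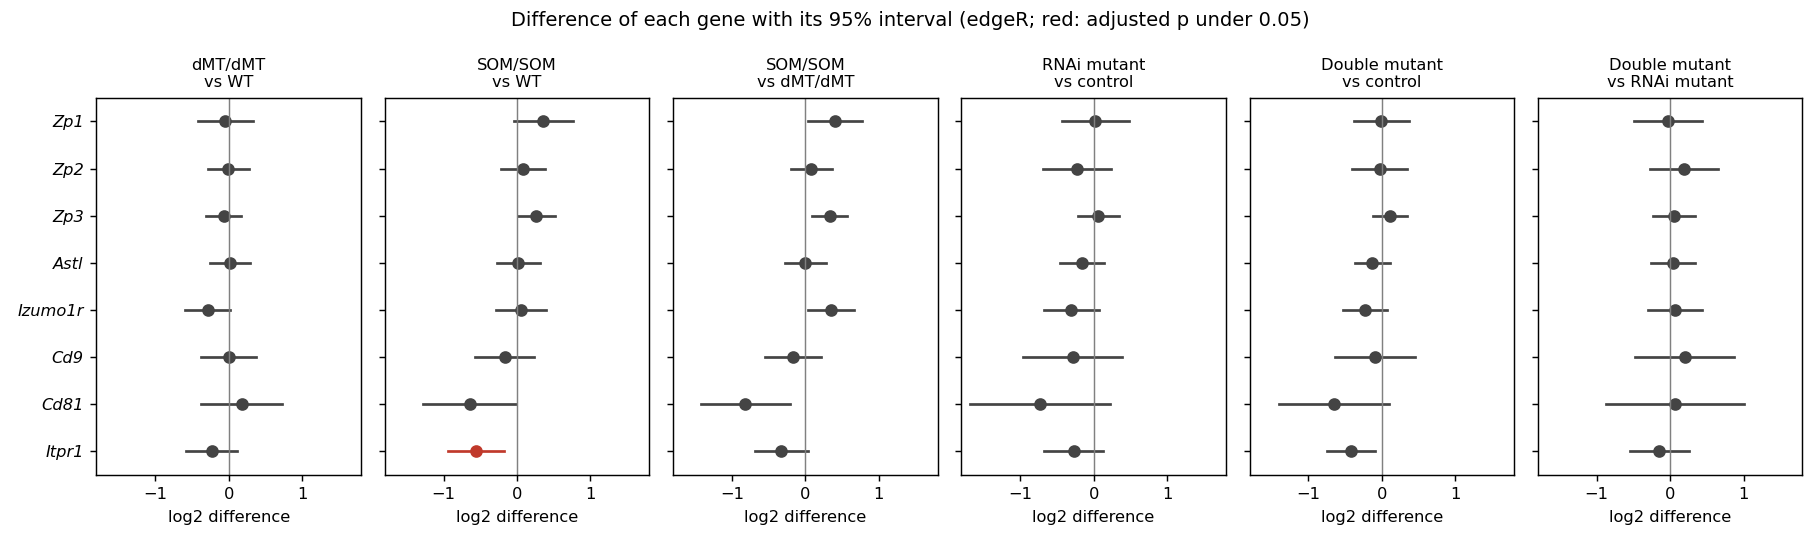
Log2 difference of each of the 8 genes (points) with its 95% interval (lines) in the 6 comparisons, with the called one in red. Itpr1 in Dicer SOM/SOM against wild type, at -0.56, is the only one called, and the intervals of Cd81 are the widest.

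The piRNA mutant, with active RNAi from 1 Dicer allele and without MILI activity, was a single library of low rRNA and allows no test. Its Zp1, at 429 CPM, and its Zp3, at 919, were below the control ranges of 489 to 801 and 996 to 1087, and its Astl, at 231, was above 179.7 to 220.0. Zp2 at 1459.5, Cd9 at 24.2, Cd81 at 1.70, Izumo1r at 71.7 and Itpr1 at 255 CPM were within the control ranges. The Dicer ΔMT/WT library, also single, had Zp1 at 769, Zp2 at 1113 and Zp3 at 1478 CPM, within wild type. Its Itpr1, at 258 CPM, exceeded every sample of wild type or Dicer ΔMT/ΔMT, and its Cd9, at 20.5, was below every one of them. Izumo1r, at 127, was below wild type, while Astl, at 203, and Cd81, at 2.78, were above it, and these 3 were within Dicer ΔMT/ΔMT.

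Whether the effect of the double mutation differed between older and younger females was tested as a difference of differences, with 2 controls and 2 double mutants of each age. No member was called (1 at an unadjusted p under 0.05, Cd9), where 0.00476% of all genes were. Itpr1 in double mutants differed from controls by -0.54 log2 units (SE 0.21) in older and by -0.28 (SE 0.21) in younger females, a difference of -0.27 (SE 0.30, adjusted p = 0.945). For Cd9 the older effect was 0.41 and the younger -0.43, with a difference of 0.85 (SE 0.36, adjusted p = 0.834). The effect of Dicer SOM/SOM was also compared between the runs, whose controls differ in genotype. None of the 8 genes was called (0 unadjusted), beside 0.00806% of genes. In that joint fit the effect on Itpr1 was -0.57 in the single-end and -0.25 in the paired-end run, a difference of -0.32 (SE 0.27, adjusted p = 0.781).

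Beyond the 8 genes, 57 others were counted from 3 lists. These were headed zona and cortical granule, sperm-egg membrane, and calcium and egg activation, and a role of every listed gene was not tested. In Dicer ΔMT/ΔMT against wild type, 6 of 52 tested were higher and 4 lower, beside 8.06% and 7.3% of all genes. Leaving out 1 library moved these 10 calls to between 5 (without wild-type replicate 2 or 3, or Dicer ΔMT/ΔMT replicate 2) and 17 (without Dicer SOM/SOM replicate 3). For Dicer SOM/SOM the counts were 11 and 10, beside 14.5% and 14.2% of all genes. In RNAi mutants 5 of 54 were higher and 2 lower, beside 7.07% and 3.64%, and in double mutants 10 and 4, beside 12.3% and 8.84%. Dicer SOM/SOM against Dicer ΔMT/ΔMT gave 4 and 2 of 52, beside 4.03% and 3.32%, and double against RNAi mutants gave none of 54 (6 at an unadjusted p under 0.05, 1 by DESeq2). The median difference of the calcium list, 24 genes, was 0.084 for Dicer SOM/SOM, 0.12 for Dicer ΔMT/ΔMT, 0.073 for RNAi mutants and 0.099 for double mutants. In the same order, that of the membrane list was -0.043, -0.17, -0.12 and 0.052, and that of the zona and cortical granule list 0.061, 0.046, -0.035 and -0.019. Over all genes tested it was 0.017, 0.0079, -0.023 and -0.0012.

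Irag1, whose product binds the IP3 receptor and restrains calcium release, rose in all 4 mutant groups set against wild type or controls. It was at 10.5 ± 1.32 CPM (SD, n = 3) in wild type, 40.4 ± 4.12 (n = 3) in Dicer SOM/SOM and 22.1 ± 1.37 (n = 4) in Dicer ΔMT/ΔMT, log2 differences of 1.93 and 1.07 (adjusted p = 2.1e-06 and 0.000185). In the paired-end run it was at 13.7 ± 2.97 in controls, 42.2 ± 4.83 (n = 2) in RNAi mutants and 36.5 ± 5.85 (n = 4) in double mutants, with differences of 1.62 and 1.41 (adjusted p = 0.000159 and 7.39e-05).

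Orai3, a calcium channel of the plasma membrane, rose by 1.58 in Dicer SOM/SOM, 1.38 in RNAi mutants and 1.92 in double mutants (adjusted p = 0.0011, 0.000553 and 4.33e-06). In Dicer ΔMT/ΔMT its difference was 0.62 (adjusted p = 0.107). Trpm7, a channel for divalent cations, rose from 118 ± 16.9 to 213 ± 3.48 CPM in RNAi mutants, and the kinase gene Prkcb from 1.82 to 5.98 CPM. Orai2, a channel subunit related to Orai3, rose in double mutants from 0.141 to 1.14 CPM (adjusted p = 0.00324), and the vesicle fusion gene Snap25 by 1.86 log2 units (adjusted p = 0.0411).

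On the membrane side, the integrin subunit gene Itgb3 fell in the same 4 comparisons. It was at 141 ± 3.77 CPM in wild type, 47.0 ± 12.9 in Dicer SOM/SOM and 80.0 ± 8.36 in Dicer ΔMT/ΔMT, differences of -1.56 and -0.82 (adjusted p = 6.85e-05 and 0.00499). Controls were at 123 ± 17.2, RNAi mutants at 53.8 and double mutants at 54.1 CPM (adjusted p = 0.00242 for RNAi and 0.000195 for double mutants). Itga3, another integrin subunit gene, rose from 0.356 CPM in wild type to 1.11 in Dicer SOM/SOM and 1.12 in Dicer ΔMT/ΔMT. Like Orai2 and Snap25, it reached the level needed for naming only in the mutants. Among genes of the cortical granules and their fusion, Rab27a and Vamp3 rose in Dicer ΔMT/ΔMT by 0.53 and 0.50 (adjusted p = 0.0152 and 0.0284). In Dicer SOM/SOM, Vamp3 rose by 0.75 (adjusted p = 0.00291) and Rab27a differed by 0.27 (adjusted p = 0.158), while Astl, the cargo, did not pass in any comparison.

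By how closely the profiles ran together over the 22 samples, with the mean of each run removed, the genes most like Zp3 among 7825 with at least 10 CPM were Smpd1 and Bscl2, at a root mean square difference of 0.10 and 0.11 log2 units. Those of Itpr1 were E330009J07Rik and Mtus1, at 0.084 and 0.090. Zp2 ran closest with Pithd1 and Cab39, Astl with Aass and Kctd20, Izumo1r with Pcbp1 and Calm3, Cd9 with Cnih1 and Srp19 and Cd81 with Evl and Greb1. Within the 8 genes, Astl and Zp2 lay closest, at 0.15, then Zp1 and Zp3 at 0.17, while Zp1 and Zp2 differed by 0.39. Astl itself had a root mean square of 0.15 about its run means and Zp3 one of 0.16, so a flat profile would lie as close to them. All points share the libraries and their depths, and these distances are descriptions.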

How the data were processed

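The authors mapped the reads with STAR 2.5.3a to the mouse genome (mm10, GRCm38) and counted them over exons of GENCODE M15 genes with featureCounts. Counting ignored strand, and a read with several places or genes was divided among them, so the deposited table holds expected counts, raw and often not whole, for 52636 genes in 22 samples, with the exon length of each gene. A second deposited table, of repeat groups, was not used here.

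Symbols were attached by gene ID (52403 matched). Counts were rounded and each run was fitted apart with edgeR 4.0.16 in R 4.3.3: TMM normalization, filterByExpr (minimum count 10, minimum total 15) and the quasi-likelihood F test over all groups of a run, with Benjamini-Hochberg adjustment at 0.05 over all genes tested. The single Dicer ΔMT/WT library was left out of the fits. The single piRNA mutant was in the paired-end fit and adds nothing to its estimate of the spread. All 8 genes passed the filter in both runs. Intervals are 95% intervals of the fitted log2 difference. CPM are counts scaled to library size after TMM, and CPM per kb were divided by exon length. The fit was tested on simulated data. Samples were grouped by the genotype in the labels, and ages were taken from there.

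The 8 genes were described in full. Of the 57 other listed genes, those named are at most 5 per comparison, the called ones with the largest log2 difference and at least 1 CPM in 1 group. The genes and lists were chosen with earlier results of these data known. Deviations of same-numbered samples of a run had correlations over 0.1 in 0 of 9 single-end and 2 of 6 paired-end pairs. Among differently numbered samples these were 1 of 24 and 2 of 26. The 2 same-numbered ones were control and double mutant 1o (0.135) and control and double mutant 2 (0.177). No label says what the numbers mark, so they were not taken to pair samples. Whether they do in the paired-end run was not tested. Alternatives were DESeq2 1.42.0, RLE size factors, library totals, no filter, a filter at 5 CPM, the compared groups alone, a replicate block, terms for age and rRNA, younger animals only and each sample left out. A fit of the paired-end libraries with Gm42418 above 1000 CPM was added after seeing the data. Promoter sequences are from RefSeq (GRCm38.p6). Counts are amplified reads without molecular identifiers, so a low count such as that of Cd81 has more than counting error behind it. Small RNAs and single transcripts of a gene are not analysed here, and the genes most like Zp1 are not reported here.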

Additional observations from a re-analysis of the deposited data

Results flagged for a closer look

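In groups of 4 samples, 24 sets of values (8 genes in 3 groups) were searched for a sample whose gap to the nearest other one is large for the range of its group, which chance gives in about 1 in 20. 3 were found. Itpr1 was at 209 CPM in Dicer ΔMT/ΔMT replicate 1, while the other 3 samples lay between 198 and 199 CPM, so the gap is small in size. Itpr1 was at 189.6 CPM in control replicate 2, the youngest control, at 10 weeks and of low rRNA, while the other 3 controls lay between 277 and 294 CPM. Without it, Itpr1 in double mutants passed the threshold. Astl was at 179.7 CPM in control replicate 1o, at 36 weeks, while the other 3 controls lay between 215 and 220.0 CPM. No gene of the 8 was called in the test of the difference between ages or between runs.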

How the results depend on the processing

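The Dicer SOM/SOM fall of Itpr1 kept its direction under all 18 alternatives, with values from -0.78 to -0.27, and its call under 12 of them (adjusted p from 0.00414 to 0.215). Itpr1 in double mutants had values from -0.53 to -0.27 over 21 alternatives. The number of the 8 genes called was 2 for Dicer SOM/SOM to wild type and 1 for Dicer SOM/SOM to Dicer ΔMT/ΔMT with genes of at least 5 CPM, where Cd81 could not be tested. With the compared groups alone it was 2 for Dicer ΔMT/ΔMT (Izumo1r and Itpr1) and 0 for Dicer SOM/SOM to wild type, and with the rRNA level as a covariate 0 for the latter and 1 for double mutants to controls. It was 1 for double mutants to controls by DESeq2 (Itpr1) and with libraries of high rRNA alone, an alternative chosen after seeing the data (Cd81, -1.16, adjusted p = 0.0408). Leaving out each sample in turn gave 0 to 2 for Dicer SOM/SOM to wild type, 0 to 1 for Dicer SOM/SOM to Dicer ΔMT/ΔMT, 0 to 1 for Dicer ΔMT/ΔMT to wild type and 0 to 1 for double mutants to controls calls. Without Dicer SOM/SOM replicate 2, Zp1 to wild type (0.51, adjusted p = 0.0486) and Itpr1 to Dicer ΔMT/ΔMT (-0.55, adjusted p = 0.0450) were called, without Dicer ΔMT/ΔMT replicate 4 Cd81 in Dicer SOM/SOM to Dicer ΔMT/ΔMT (-0.98, adjusted p = 0.0432), and without Dicer SOM/SOM replicate 3 Itpr1 in Dicer ΔMT/ΔMT (-0.23, adjusted p = 0.0491). The causes were not tested. Levels per length moved by less than the spread between samples with library totals in 47 of 48 values, the exception being Itpr1 in wild type, from 23.9 to 23.4.

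The replicate block gave 1 call in Dicer SOM/SOM to Dicer ΔMT/ΔMT, Cd81 at -0.92 (adjusted p = 0.0470). It kept that of Itpr1 and changed the call of no other of the 8 genes. With the block, the calls over all genes went from 2247 to 1228 for RNAi mutants to controls and those of the 57 listed genes from 6 to 3 for Dicer SOM/SOM to Dicer ΔMT/ΔMT.

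Some differences changed sign, none of them called under either setting. With library totals alone these were Zp2 0.023 and Cd9 0.025 for Dicer ΔMT/ΔMT to wild type, then Astl 0.033 for Dicer SOM/SOM to Dicer ΔMT/ΔMT, then Zp1 0.0051 for double mutants to controls. With no filter on low counts these were Zp2 0.0046 and Cd9 0.0075 for Dicer ΔMT/ΔMT to wild type, then Astl -0.0011 for Dicer SOM/SOM to wild type. With genes of at least 5 CPM these were Zp2 0.029 and Cd9 0.031 for Dicer ΔMT/ΔMT to wild type, then Astl 0.041 for Dicer SOM/SOM to Dicer ΔMT/ΔMT, then Zp1 0.041 and Zp2 0.0083 for double mutants to controls, then Zp1 0.00045 for double to RNAi mutants. With the compared groups alone these were Zp2 0.0018 and Cd9 0.0043 for Dicer ΔMT/ΔMT to wild type, then Zp1 0.0067 for double mutants to controls. With the replicate block these were Astl -0.020 and Cd9 0.0076 for Dicer ΔMT/ΔMT to wild type, then Astl 0.037 for Dicer SOM/SOM to Dicer ΔMT/ΔMT, then Zp1 0.12 for double mutants to controls, then Zp3 -0.045 and Cd81 -0.32 for double to RNAi mutants. With the rRNA level as a covariate these were Zp2 0.0036 for Dicer ΔMT/ΔMT to wild type, then Izumo1r -0.056 for Dicer SOM/SOM to wild type, then Astl 0.079 for Dicer SOM/SOM to Dicer ΔMT/ΔMT, then Zp1 -0.21 and Zp2 0.070 for RNAi mutants to controls, then Zp1 0.17, Zp2 -0.071 and Astl -0.039 for double to RNAi mutants. With a term for age these were Zp3 -0.021 and Cd81 -0.23 for double to RNAi mutants. With younger animals alone these were Zp3 -0.033 for double mutants to controls, then Zp3 -0.083 and Cd81 -0.091 for double to RNAi mutants. With libraries of high rRNA alone these were Zp1 -0.21 and Zp2 0.052 for RNAi mutants to controls, then Cd9 0.016 for double mutants to controls, then Zp1 0.20, Zp2 -0.080, Astl -0.022 and Cd81 -0.25 for double to RNAi mutants.
Where leaving out 1 sample changed a sign, the difference ran over the ranges given here. For Dicer ΔMT/ΔMT to wild type, it took Zp2 from -0.11 to 0.087, Cd9 from -0.16 to 0.15, Astl from -0.083 to 0.088 and Zp1 from -0.10 to 0.0016. For Dicer SOM/SOM to wild type, it took Zp2 from -0.039 to 0.16, Astl from -0.092 to 0.12 and Izumo1r from -0.15 to 0.21. For Dicer SOM/SOM to Dicer ΔMT/ΔMT, it took Astl from -0.062 to 0.10 and Zp2 from -0.0034 to 0.17. For double mutants to controls, it took Zp2 from -0.19 to 0.069, Cd9 from -0.25 to 0.25 and Zp1 from -0.13 to 0.12. For double to RNAi mutants, it took Zp3 from -0.015 to 0.12, Izumo1r from -0.0083 to 0.17, Zp1 from -0.15 to 0.10, Astl from -0.016 to 0.090, Cd81 from -0.23 to 0.24 and Itpr1 from -0.30 to 0.054. For RNAi mutants to controls, it took Zp1 from -0.098 to 0.13 and Cd9 from -0.45 to 0.039.

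Calls over all genes moved by more than 1.5 times in these cases. For Dicer ΔMT/ΔMT to wild type, 3556 became 2203 and 2205 without wild-type replicates 1 and 2. The 6627 calls for Dicer SOM/SOM to wild type became 4372 with genes of at least 5 CPM. For Dicer SOM/SOM to Dicer ΔMT/ΔMT, 1702 became 2629 by DESeq2, 808 with the rRNA level as a covariate, and 1073, 899 and 1123 without Dicer ΔMT/ΔMT replicates 1, 2 and 3. For RNAi mutants, 2247 became 1353 with younger animals alone, and 1104 and 1077 without RNAi mutant 1 and 2. For double mutants to controls, 4447 became 1932 with younger animals alone. For double to RNAi mutants, 66 became 169 by DESeq2, 147 with no filter and 24 without RNAi mutant 2. Calls among the 57 listed genes, 10 for Dicer ΔMT/ΔMT, ran from 5 (without wild-type replicate 2 or 3 or Dicer ΔMT/ΔMT replicate 2) to 17 (without Dicer SOM/SOM replicate 3), and were 6 without wild-type or Dicer ΔMT/ΔMT replicate 1 and 16 with the groups alone. The 6 for Dicer SOM/SOM to Dicer ΔMT/ΔMT became 1 with the rRNA level as a covariate, 2 without Dicer ΔMT/ΔMT replicate 2, and 3 without Dicer ΔMT/ΔMT replicate 4 or Dicer SOM/SOM replicate 1. The 7 in RNAi mutants became 4 without RNAi mutant 1, the 14 in double mutants 6 with younger animals alone, and the 0 of double to RNAi mutants 1 by DESeq2 and with no filter. Where an RNAi mutant is left out, the other is assumed to vary like the other groups. The lowest count behind a value was 11, of Cd81 in Dicer SOM/SOM replicate 3, and the 2 RNAi mutants and the single piRNA mutant limit what can be said of them.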
